A study of Mus musculus with 6 samples.

Results

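Glycolysis genes and genes induced by low oxygen were followed in the uterus of mice that carry an SF1 transgene switched on by Cre. The set held 42 genes chosen by name. Of these, 39 had a probe set annotated to that symbol alone, among 18193 genes read in all, and each gene was read by the brightest such probe set. Gpi1, Eno1 and Bnip3l had none and are not reported. By role the genes read were 17 glycolytic enzymes, 5 glucose and lactate transporters, 4 regulators of flux, 7 hypoxia-inducible factors (HIF) and oxygen sensors, and 6 targets of these factors.

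Glycolysis breaks glucose down to pyruvate in the cytoplasm, and lactate dehydrogenase then interconverts pyruvate and lactate. When oxygen is scarce, HIF alpha subunits escape hydroxylation by the Egln enzymes and degradation through Vhl, and they raise transcription of glucose transporters, most glycolytic enzymes and other target genes. In the uterus, glucose uptake and lactate output are known to rise when endometrial stroma turns into decidua.

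Each of 6 arrays (Affymetrix Mouse Genome 430 2.0, 1 colour) held RNA pooled from the uterine horns of 2 C57BL6J mice, without the cervix. The 3 SF1 pools carried the genotype Pgrcre/+ SF1LsL/+, in which Cre made from the Pgr locus switches on the SF1 transgene in cells that express the progesterone receptor. The 3 control pools carried SF1LsL/+, the same transgene without Cre. Horns were taken 2 weeks after a surgery that the labels do not name further, and the labels give no age. Because only the SF1 pools had the Cre allele, Cre, the altered Pgr locus and the transgene cannot be told apart. Array medians lay between 149.9 and 159.6 intensity units in SF1 pools and between 159 and 162.2 in control pools. Pgr read 1893 ± 158 in SF1 pools and 4797 ± 89 in control pools (SD, n = 3; limma log2 difference -1.34, adjusted p = 3.23e-05). The brighter probe set of Nr5a1, the gene of SF1, read 151 ± 0.131 in SF1 pools and 152 ± 17.4 in control pools (log2 difference 0.00, adjusted p = 0.992), and whether it can see the transgene is not known here. Summed markers of uterine epithelium were 22826 to 25102 in SF1 pools and 21328 to 22473 in control pools, with 5 of 12 called higher and 2 lower. Smooth muscle markers summed to 39882 to 42028 in SF1 pools and 37511 to 40135 in control pools, with 0 of 10 called by limma and 3 at an unadjusted p under 0.05. Endothelial markers summed to 5998 to 6532 in SF1 pools and 8977 to 9508 in control pools, with 10 of 12 called lower. Stromal markers summed to 44347 to 48067 in SF1 pools and 53073 to 55697 in control pools (6 of 10 called lower), macrophage markers to 14438 to 20954 in SF1 pools and 8040 to 12127 in control pools (7 of 11 called higher), and ciliated cell markers to 6870 to 10980 in SF1 pools and 1908 to 2181 in control pools (7 of 10 called higher). The part of these markers in the results was not tested. In whole horns, fewer cells of a type and less RNA per cell cannot be told apart.

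Genes of the set changed in both directions, and most were not called. Differences are SF1 minus control on the scale of log2(intensity + 16), and a gene was called at a limma adjusted p under 0.05, with Benjamini-Hochberg adjustment over 45037 probe sets. Of 38 genes in that test, 10 rose and 3 fell in SF1 pools. Over all 18193 genes, 8.37% rose and 8.11% fell (16.5% called in all). After median centring 62.8% of all calls were rises, against 50.8% in the deposited values. With only the brighter probe sets kept, 10 of 36 genes of the set rose and 4 fell, beside 27.8% of all genes called. The median log2 difference was 0.07 over the 38 genes and -0.05 over all genes. Gapdh, the remaining gene, is annotated alone only on Affymetrix control probe sets and stands outside these counts. The arrays of the groups did not overlap for 15 genes that were higher and 8 that were lower in SF1 pools, where all genes gave 16.2% higher and 23.7% lower (39.9% in all). The 13 called genes were all among these. Without control replicate 1 the count of rises was 6, and 11.2% of all genes were called. The count of falls was 1 without control replicate 2 or without SF1 replicate 1, where 13% and 10.6% of all genes were called.

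**Figure D1:**
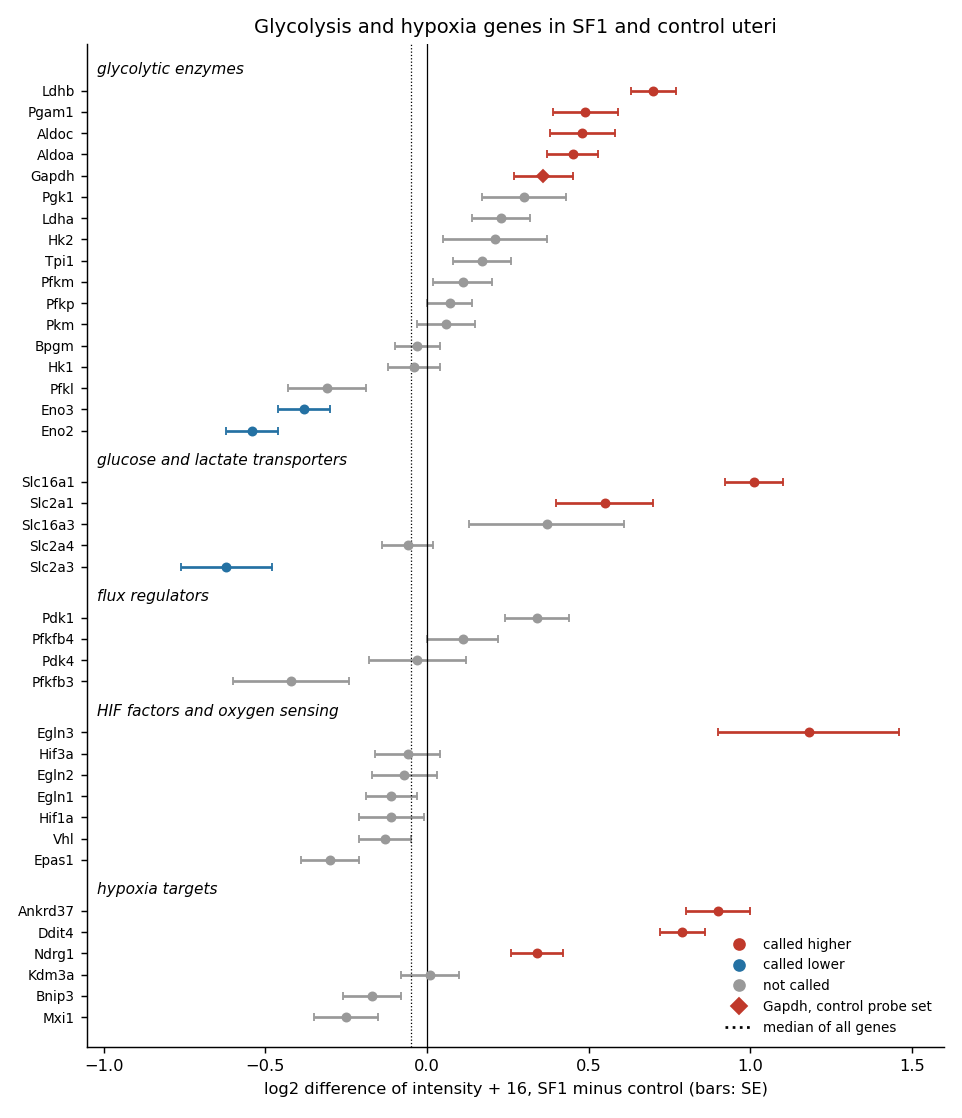
Log2 difference of intensity + 16, SF1 minus control, for the 39 genes read (x axis; bars are SE of the limma fit), grouped by role and ordered by size. Slc16a1, Egln3, Ankrd37, Ddit4 and Ldhb stand farthest to the right, Slc2a3 and Eno2 farthest to the left, and the dotted line marks the median of all genes at -0.05.

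Among glycolytic enzymes, both aldolase genes read here, Pgam1 and Ldhb rose. The enolase genes Eno2 and Eno3 fell, and the enolase gene Eno1 was not read. Of 16 enzymes tested, 4 rose (Ldhb, Pgam1, Aldoc, Aldoa), 2 fell (Eno2, Eno3) and 10 were not called. The median log2 difference of the 16 was 0.14, against -0.05 over all genes.

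Ldhb encodes the heart-type subunit of lactate dehydrogenase, whose tetramer favours the conversion of lactate to pyruvate. It read 4389, 4288 and 4529 intensity units in SF1 pools, against 2691, 2728 and 2674 in control pools. The lowest SF1 array thus stood well above the highest control array, and spread within a group was small. The log2 difference was 0.70 ± 0.07 (SE; adjusted p = 0.000368), and the 3 other Ldhb probe sets were also called higher, by 0.66 to 0.74. Ldha encodes the muscle-type subunit, which favours lactate formation and is a textbook HIF target. It read 4747, 5489 and 4541 in SF1 pools, against 4196, 4110 and 4240 in control pools. The groups did not overlap, but the difference was not called (0.23 ± 0.09, adjusted p = 0.128). The change of Ldhb exceeded that of Ldha by 0.47 on the log2 scale.

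Aldolase splits the hexose bisphosphate into triose phosphates. Aldoa, the broadly expressed gene, read 4455, 4699 and 4218 in SF1 pools, against 3231, 3142 and 3371 in control pools. Aldoc, best known from brain, read 699, 593 and 621 in SF1 pools, against 438, 496 and 423 in control pools. Neither gene's groups overlapped. Their log2 differences were close, at 0.45 ± 0.08 for Aldoa (adjusted p = 0.0062) and 0.48 ± 0.10 for Aldoc (adjusted p = 0.012). Of the other probe sets, 3 of 4 for Aldoa were called higher (0.22 to 0.58 over the 4). The only other one for Aldoc, at a mean of 47.2 in SF1 pools and 52.5 in control pools, was not called (-0.11), and with both averaged the Aldoc call was lost (0.18, adjusted p = 0.145).

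Pgam1, phosphoglycerate mutase, read 1505, 1775 and 1375 in SF1 pools, against 1036, 1129 and 1116 in control pools. Every SF1 array was above every control array, and SF1 replicate 2 was the highest. The log2 difference was 0.49 ± 0.10 (adjusted p = 0.0159), a call lost without control replicate 1 (adjusted p = 0.0622).

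Gapdh, glyceraldehyde phosphate dehydrogenase and a common reference transcript, read 4615, 5225 and 4394 on its 3′ control probe set in SF1 pools, against 3558, 3779 and 3733 in control pools. The groups did not overlap on that probe set. When the 3 Gapdh control probe sets were added to the test, a step chosen after seeing the data, the differences were 0.36 for the 3′ set (adjusted p = 0.0298), 0.36 for the middle set (0.0537) and 0.43 for the 5′ set (0.0288). The ratio of 3′ to 5′ signal, a sign of RNA quality, was 1.54 ± 0.104 in SF1 pools and 1.62 ± 0.0877 in control pools (SD, n = 3 arrays each; two-sided exact permutation test, p = 0.3). The same ratio for beta-actin was 2.19 ± 0.123 in SF1 pools and 2.51 ± 0.107 in control pools (exact permutation p = 0.1, the smallest that 3 against 3 can give). Its part in these differences was not tested.

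The enolases dehydrate phosphoglycerate to phosphoenolpyruvate. Eno2, the neuronal form, read 129, 146 and 147 in SF1 pools, against 207, 218 and 209 in control pools. Eno3, the muscle form, read 258, 269 and 295 in SF1 pools, against 346, 379 and 355 in control pools. For both genes all SF1 arrays lay below all control arrays, with log2 differences of -0.54 ± 0.08 (Eno2, adjusted p = 0.00298) and -0.38 ± 0.08 (Eno3, adjusted p = 0.0191). For Eno3, dropping control array 2, SF1 array 1 or SF1 array 2 ended the call (adjusted p up to 0.074). Summed skeletal muscle markers ran the same way as Eno3, at 1133 to 1273 in SF1 pools and 1345 to 1527 in control pools, with 1 of 12 called lower (Acta1). For sums over 12 genes these are low values, since the median probe set of an array read 149.9 to 162.2. The part of these markers in the Eno3 result was not tested. Summed neuronal and neuroendocrine markers ran opposite to Eno2, at 1695 to 3332 in SF1 pools and 668 to 698 in control pools, with 5 of 10 called higher and 1 lower.

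At the hexokinase and phosphofructokinase steps 0 of 5 genes were called by limma, and 1 (Pfkl) had an unadjusted p under 0.05. Hexokinase traps glucose as its phosphate. Hk1 read 1034, 1113 and 1181 in SF1 pools, against 1168, 1103 and 1142 in control pools, and the groups overlapped (-0.04 ± 0.08, adjusted p = 0.784). Hk2, the inducible form, read 411, 614 and 390 in SF1 pools, against 377, 425 and 393 in control pools. Only SF1 replicate 2 stood above the rest (0.21 ± 0.16, adjusted p = 0.407).

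Phosphofructokinase sets the pace of glycolysis. Its liver-type gene Pfkl read 189, 243 and 251 in SF1 pools, against 251, 308 and 297 in control pools (-0.31 ± 0.12, adjusted p = 0.129). Those groups did not overlap, but the highest SF1 and the lowest control value round to the same number, and the other 2 Pfkl probe sets gave 0.14 and 0.19. Muscle-type Pfkm read 499, 483 and 528 in SF1 pools, against 454, 514 and 432 in control pools (0.11 ± 0.09, adjusted p = 0.447). Platelet-type Pfkp read 520, 537 and 497 in SF1 pools, against 487, 495 and 497 in control pools (0.07 ± 0.07, adjusted p = 0.554), where the groups touch at the same rounded value. The 95% interval of the difference ran from -0.10 to 0.31 for Pfkm and from -0.10 to 0.24 for Pfkp. The remaining enzymes, Tpi1, Pgk1, Bpgm and Pkm, had differences between -0.03 and 0.30, none of them called. Tpi1 and Pgk1 did not overlap between groups, and Pgk1 read 2051, 2808 and 1973 in SF1 pools, against 1765, 1813 and 1909 in control pools. A Bpgm probe set that does not represent the gene here was called higher (0.50, adjusted p = 0.0359), while the brightest one gave -0.03.

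**Figure D2:**
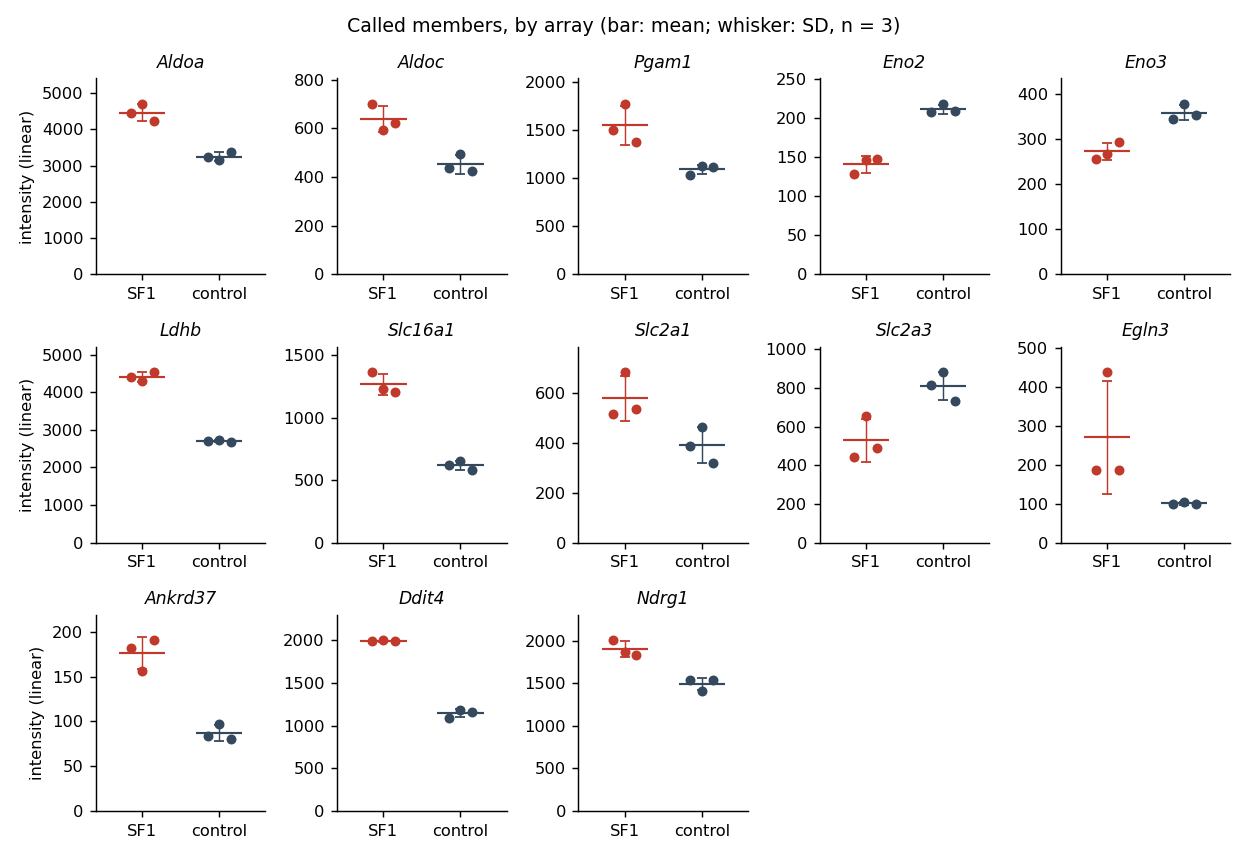
Linear intensity (y axes, from 0) of the 13 called genes in each array, SF1 on the left and control on the right of each panel. Points are arrays, bars are means and whiskers are SD (n = 3). In every panel the 3 SF1 arrays lie wholly above the control arrays, or wholly below them for Eno2, Eno3 and Slc2a3.

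The transporters diverged. Slc16a1, the monocarboxylate carrier of lactate and pyruvate, rose, as did Slc2a1, and Slc2a3 fell. Slc16a1 read 1365, 1235 and 1204 in SF1 pools, against 621, 656 and 584 in control pools. Every SF1 array was far above every control array, with a log2 difference of 1.01 ± 0.09 (adjusted p = 0.000133). The other Slc16a1 probe set was dim, at a mean of 67.2 in SF1 pools and 58.8 in control pools, and was not called (0.16). With both averaged the difference was 0.58 and still called (adjusted p = 0.000934). Slc16a3, the carrier of lactate-exporting cells and a HIF target, read 119, 267 and 138 in SF1 pools, against 125, 110 and 137 in control pools. It was high only in SF1 replicate 2 and was not called (0.37 ± 0.24, adjusted p = 0.331).

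Slc2a1 encodes the broadly expressed basal glucose transporter. It read 516, 682 and 535 in SF1 pools, against 387, 463 and 319 in control pools. The groups did not overlap (0.55 ± 0.15, adjusted p = 0.0422), though dropping control array 1 or 3, or any 1 of the SF1 arrays, ended the call (adjusted p up to 0.12). Slc2a3, the high-affinity glucose transporter, read 443, 655 and 487 in SF1 pools, against 815, 881 and 733 in control pools. All SF1 arrays were below the control arrays (-0.62 ± 0.14, adjusted p = 0.0232). Dropping control array 1 or 2, or SF1 array 1 or 3, ended that call (adjusted p up to 0.0795). Averaging all 4 probe sets also ended it (-0.31, adjusted p = 0.0865). Of the other 3 probe sets, 1 was called lower (-0.61, adjusted p = 0.0334). That one ends in _x_at and the brightest one in _s_at, and such probe sets can also bind related transcripts. A dim pair without these endings gave -0.11 and 0.09. Slc2a4, the insulin-responsive transporter of fat and muscle, read 251, 249 and 234 in SF1 pools, against 258, 274 and 237 in control pools. Its groups overlapped and it was not called (-0.06 ± 0.08, adjusted p = 0.649).

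Within each array, Slc2a1 moved against Slc2a3 by 1.17 on the log2 scale, the widest gap among 11 pairs of related genes compared. For 7 of the 11 pairs the arrays of both groups did not overlap: Slc2a1 with Slc2a3 and with Slc2a4, Slc2a4 with Slc2a3, Ldhb with Ldha, Eno3 with Eno2 (0.16), Pfkm with Pfkl (0.42) and Pfkp with Pfkl (0.38). Each of these reached an exact permutation p of 0.1, the smallest possible with 3 against 3, and 0.157 after adjustment over the 11 pairs. The changes of Aldoc and Aldoa differed by 0.03 (exact permutation p = 1), with SDs of 0.16 in SF1 pools and 0.16 in control pools.

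Among the 4 genes that steer flux into or past pyruvate, 0 were called by limma on the brightest probe set, and 2 (Pdk1 and Pfkfb3) had an unadjusted p under 0.05. Pdk1, the kinase that shuts pyruvate dehydrogenase and a HIF target, read 416, 378 and 408 in SF1 pools, against 305, 363 and 279 in control pools. The groups did not overlap, at a difference of 0.34 ± 0.10 (adjusted p = 0.0681). Of the other 3 Pdk1 probe sets, 2 were called higher (0.77, adjusted p = 0.000194, and 0.33, adjusted p = 0.0412), and Pdk1 was called in 8 of 15 alternative fits. Pdk4, the starvation-responsive kinase, differed by -0.03, and the bifunctional Pfkfb3 and Pfkfb4, which set the activator of phosphofructokinase, by -0.42 and 0.11. These 3 genes overlapped between groups.

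The HIF subunits and most of the oxygen-sensing genes were not called. Hif1a differed by -0.11 (95% interval -0.33 to 0.12) and Hif3a, a modulating alpha subunit, by -0.06. Epas1, the alpha subunit best known from endothelium, read 3019, 2748 and 2961 in SF1 pools, against 3533, 3878 and 3349 in control pools. All SF1 arrays were below the control arrays, and the difference of -0.30 ± 0.09 just missed the threshold (adjusted p = 0.0529). It passed in 5 of 15 alternative fits. The endothelial markers given above ran the same way, and their part in the Epas1 values was not tested.

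Vhl, the ubiquitin ligase subunit, read 609, 578 and 565 in SF1 pools, against 665, 624 and 631 in control pools (-0.13 ± 0.08, adjusted p = 0.288). Egln1, the main HIF prolyl hydroxylase, read 1248, 1253 and 1245 in SF1 pools, against 1427, 1274 and 1349 in control pools (-0.11 ± 0.08, adjusted p = 0.371). Both lay lower in all SF1 arrays without being called. Egln2 overlapped between groups (-0.07).

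Egln3, a hydroxylase that HIF itself induces, was the only one of these 7 genes called. It read 187, 439 and 187 in SF1 pools, against 98, 105 and 99 in control pools. All SF1 arrays were above the control arrays, and SF1 replicate 2 was far above the other two. The log2 difference was 1.18 ± 0.28 (adjusted p = 0.0235) and 0.84 on the other probe set (adjusted p = 0.0174). Without SF1 replicate 2 it was 0.80 and still called, below Slc16a1 (1.03) and Ankrd37 (0.98) in the same fit. The call was lost without control replicate 1 (adjusted p = 0.0713) or control replicate 3 (0.0656).

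SF1 replicate 2 also read highest for Slc16a3, Hk2, Pgk1, Pgam1, Ldha, Gapdh and Slc2a1 among the SF1 arrays. It was the highest SF1 array for 18 of the 38 tested genes and for 9 of the 16 tested enzymes, against 39.5% of all genes. Among the control arrays, replicate 2 was the highest for 24 of the 38, against 41% of all genes. The same array held the neutrophil markers: their sum was 1324, 23575 and 996 in SF1 pools, against 849, 776 and 1442 in control pools, with 0 of 9 called by limma and 1 (Mmp9) at an unadjusted p under 0.05. The part of the neutrophil markers in the high values of SF1 replicate 2 was not tested. Without that array the median log2 difference of the tested enzymes was 0.07.

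**Figure D3:**
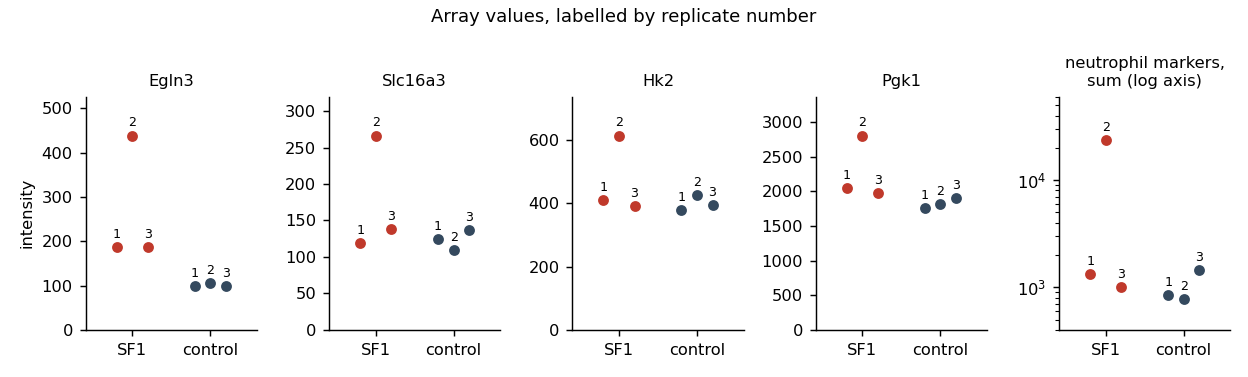
Intensity of Egln3, Slc16a3, Hk2 and Pgk1 and the summed intensity of 9 neutrophil markers (log axis, right panel) in each array, labelled by replicate number, SF1 left and control right. SF1 replicate 2 is the highest array in all 5 panels, while only Egln3 and Pgk1 are higher in every SF1 array than in every control array.

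Among hypoxia targets outside glycolysis, Ankrd37, Ddit4 and Ndrg1 rose, and Kdm3a, Bnip3 and Mxi1 were not called. The median log2 difference of the 6 was 0.18, against 0.14 for the glycolytic enzymes and -0.05 for all genes. The share called was 3 of 6 for the targets and 6 of 16 for the enzymes, beside 16.5% of all genes, and no test of the 2 groups of genes against each other was made. With only the brighter probe sets kept, which drops Ankrd37, the median of the remaining 5 targets was 0.01. In that fit 2 of the 5 targets rose and 0 fell, and 4 of 16 enzymes rose and 2 fell. The share of all genes called was higher there, at 27.8%.

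Ankrd37, an ankyrin repeat gene induced by HIF, read 182, 156 and 191 in SF1 pools, against 83, 97 and 80 in control pools. The SF1 arrays stood wholly apart from the control arrays (0.90 ± 0.10, adjusted p = 0.000594). Ddit4, which restrains the growth kinase mTORC1 and answers to glucocorticoids and other stresses as well as to hypoxia, read 1989, 1999 and 1989 in SF1 pools, against 1095, 1186 and 1164 in control pools. The SF1 arrays lay almost on one value (0.79 ± 0.07, adjusted p = 0.000223). Ndrg1, a stress and differentiation gene, read 2005, 1870 and 1834 in SF1 pools, against 1537, 1415 and 1537 in control pools. Its groups did not overlap (0.34 ± 0.08, adjusted p = 0.023). Of 4 other Ndrg1 probe sets 1 was called higher, and dropping either of control arrays 1 and 2 or of SF1 arrays 1 and 2 ended the call (adjusted p up to 0.0847).

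Mxi1, an antagonist of Myc, read 1535, 1198 and 1374 in SF1 pools, against 1581, 1632 and 1661 in control pools. It was lower in all SF1 arrays but not called (-0.25 ± 0.10, adjusted p = 0.133). With its probe sets averaged it was called lower (-0.25, adjusted p = 0.0422), and the 6 targets then held 2 rises and 1 fall. Bnip3, a mitophagy receptor, and Kdm3a, a histone demethylase, overlapped between groups, with differences of -0.17 (95% interval -0.39 to 0.04) and 0.01 (-0.19 to 0.22).

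Promoter windows from RefSeq (build GRCm38.p6, 250 bases before to 50 after a transcript start) were available for 35 of the 39 genes. They were scanned on both strands for ACGTG and GCGTG, the core of the hypoxia response element, with overlapping matches merged. A match can also be part of the E-box CACGTG. At least 1 match lay in 39 of the 51 windows of these genes (76.5%), against 43.8% of all 32851 windows. Many of the genes were listed because low oxygen induces them, so this share describes the choice of genes and not their change here. The windows of these genes also held more CG pairs (median 20, against 7 in all windows), and each motif contains that pair. The part of CG content in the motif count was not tested. By call, and with Gapdh counted as higher, 12 of 13 windows of genes that rose, 1 of 2 of genes that fell and 26 of 36 of uncalled genes held a match. Some genes had several windows. Counted by gene, 10 of 10 that rose, 1 of 2 that fell and 20 of 23 uncalled genes held a match, beside 12628 of all 27025 genes. The called genes Ndrg1 and Slc2a3 had no window. AAGGTCA, a core of sites bound by SF1 and its relatives, lay in 1 of the 51 windows (1.96%, of Tpi1), against 4.72% of all windows.

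The windows of 3 genes that rose and of Bnip3, which did not, are shown as examples, picked because each holds matches to the hypoxia core (in capitals). They lie at chr8:45999801-46000100 (minus strand, Ankrd37), chr10:59951721-59952020 (minus, Ddit4), chr3:104638414-104638713 (plus, Slc16a1) and chr7:138909457-138909756 (minus, Bnip3), and each is written 5′ to 3′ along its gene.
Ankrd37: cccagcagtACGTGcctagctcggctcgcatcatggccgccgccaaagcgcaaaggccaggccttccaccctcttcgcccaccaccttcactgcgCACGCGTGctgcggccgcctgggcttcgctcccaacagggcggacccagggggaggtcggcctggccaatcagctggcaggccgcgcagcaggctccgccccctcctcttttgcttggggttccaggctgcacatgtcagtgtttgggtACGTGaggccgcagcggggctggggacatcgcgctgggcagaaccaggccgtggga
Ddit4: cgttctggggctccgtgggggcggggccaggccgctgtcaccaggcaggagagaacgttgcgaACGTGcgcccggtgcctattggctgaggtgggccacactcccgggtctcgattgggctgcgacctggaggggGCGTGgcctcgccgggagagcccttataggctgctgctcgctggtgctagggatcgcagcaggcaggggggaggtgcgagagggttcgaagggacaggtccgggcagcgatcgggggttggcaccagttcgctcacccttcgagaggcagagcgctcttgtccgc
Slc16a1: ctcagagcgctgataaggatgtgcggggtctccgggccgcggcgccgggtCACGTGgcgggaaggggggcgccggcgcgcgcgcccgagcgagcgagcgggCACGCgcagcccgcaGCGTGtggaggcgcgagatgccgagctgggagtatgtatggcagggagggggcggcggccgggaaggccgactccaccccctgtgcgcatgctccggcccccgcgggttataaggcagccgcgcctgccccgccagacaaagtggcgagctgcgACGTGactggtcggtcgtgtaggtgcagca
Bnip3: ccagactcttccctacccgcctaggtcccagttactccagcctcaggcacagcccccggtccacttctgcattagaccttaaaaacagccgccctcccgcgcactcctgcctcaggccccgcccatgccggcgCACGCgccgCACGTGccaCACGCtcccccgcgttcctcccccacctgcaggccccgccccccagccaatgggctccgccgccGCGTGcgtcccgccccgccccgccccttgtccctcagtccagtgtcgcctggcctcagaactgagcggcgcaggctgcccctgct
Ankrd37 had 3 matches, Ddit4 had 2, Slc16a1 had 4 and Bnip3 had 4. In both Slc16a1 and Bnip3, 1 match was an E-box.

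Other genes of glucose handling, from a list of 53 of which 48 were read, showed 6 rises and 3 falls, beside 8.37% higher and 8.11% lower of all genes. Their median of -0.06 lay next to the -0.05 of all genes, so the list as a whole stood near the background. Mpc1, a subunit of the carrier that takes pyruvate into mitochondria, read 1704, 1675 and 1746 in SF1 pools, against 973, 1213 and 1235 in control pools (0.58 ± 0.10, adjusted p = 0.00657). Adpgk, an ADP-dependent glucokinase, differed by 0.57 (adjusted p = 0.00918), and by 0.34 with its probe sets averaged. Pgm5, a phosphoglucomutase relative of muscle adhesion sites, was lower by -1.23 (adjusted p = 0.00023). Pcx, pyruvate carboxylase, read 341, 298 and 247 in SF1 pools, against 563, 755 and 689 in control pools (-1.14 ± 0.14, adjusted p = 0.000994). Both groups of arrays were apart for Mpc1 and for Pcx. Without SF1 replicate 1 or SF1 replicate 2 the count of rises was 3, where 10.6% and 11.9% of all genes were called. Summed fat cell markers, where Pcx is also abundant, were 3337 to 11139 in SF1 pools and 11162 to 16923 in control pools, with 2 of 6 called lower. Their part in the Pcx result was not tested.

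Other HIF pathway and hypoxia-induced genes, 45 read of 47 listed, showed 4 rises and 8 falls (median -0.03), beside 8.37% and 8.11% of all genes. Stc1, the stanniocalcin hormone gene, read 238, 293 and 276 in SF1 pools, against 601, 580 and 494 in control pools (-1.01 ± 0.11, adjusted p = 0.000463). Vegfa, the angiogenic factor, read 463, 469 and 466 in SF1 pools, against 859, 916 and 732 in control pools (-0.82 ± 0.10, adjusted p = 0.000763). Car12, a membrane carbonic anhydrase, read 505, 607 and 352 in SF1 pools, against 93, 84 and 68 in control pools (2.34 ± 0.18, adjusted p = 9.09e-05). Tfrc, the transferrin receptor, rose by 0.81 (adjusted p = 0.00311). The arrays of both groups were apart for Stc1, Vegfa and Car12. With each gene's probe sets averaged, the differences shrank to 1.01 for Car12, 0.30 for Tfrc and -0.40 for Vegfa and stayed called. The count of falls was 4 without SF1 replicate 1 or control replicate 1, where 10.6% and 11.2% of all genes were called. The count of rises was 7 with only the brighter probe sets (38 genes read), with trended variances, with median centring or with a pseudocount of 64. In that order, these 4 fits called 27.8%, 19.4%, 15.6% and 19.7% of all genes, against 16.5% in the fit used above.

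Genes of the citrate cycle and respiratory chain, 31 read of 33 listed, showed 13 rises and 1 fall, beside 8.37% higher and 8.11% lower of all genes. Their median log2 difference was 0.20, against -0.05 over all genes. Cycs, cytochrome c, read 2125, 2532 and 1887 in SF1 pools, against 1456, 1317 and 1455 in control pools (0.62 ± 0.11, adjusted p = 0.00829), with a difference of 0.40 when its probe sets were averaged. Suclg1, a subunit of succinate ligase, read 1917, 2012 and 1775 in SF1 pools, against 1416, 1096 and 1419 in control pools (0.54 ± 0.11, adjusted p = 0.0159). Both genes were higher in all SF1 arrays. Ppargc1a, a coactivator of mitochondrial biogenesis, was the gene that fell, to 247.3 ± 19.2 in SF1 pools against 370.5 ± 26.9 in control pools (-0.55 ± 0.09, adjusted p = 0.00455). The rises were small, between 0.26 and 0.62. Their count fell to 5 when control array 1 or SF1 array 1 was dropped. It was 4 without SF1 array 2, 7 without SF1 array 3 and 8 without control array 3. In that order, these fits called 11.2%, 10.6%, 11.9%, 12.6% and 12.8% of all genes, against 16.5% with all 6 arrays. The median of the list was 0.21 to 0.24 in them. With quantile normalization 9 genes of the list rose and 1 fell, where 16% of all genes were called. With only the brighter probe sets kept 15 rose and 1 fell, where 27.8% of all genes were called. Suclg1 was not called once SF1 array 1 or 2 was dropped (adjusted p up to 0.0594).

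**Figure D4:**
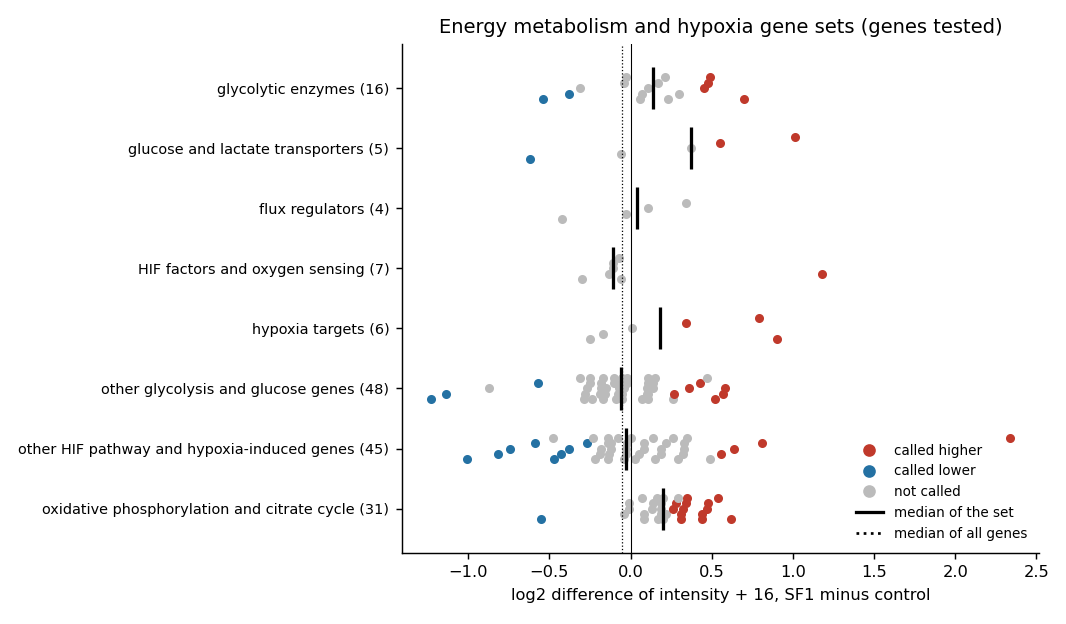
Log2 difference of intensity + 16, SF1 minus control (x axis), of each tested gene in the 5 groups of glycolysis and hypoxia genes and in 3 further lists (number of genes in brackets). Points are genes, black bars are the medians of the lists and the dotted line is the median of all genes. The list for oxidative phosphorylation and the citrate cycle has 13 genes called higher and 1 lower, and the glycolytic enzymes have 4 higher and 2 lower.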

How the data were processed

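The authors deposited 1 table of probe set intensities on a linear scale for 6 arrays (3 SF1, 3 control, each a pool of 2 uteri, per the labels). How background was removed, arrays were scaled and probes were combined stays unknown here, since the labels name no software, and that choice bears most on dim signals. Among 45101 probe sets, 64 Affymetrix controls were set aside and 45037 tested. Names came from a platform annotation table (34945 tested probe sets with 1 symbol, 932 with several, 9160 with none), and all 39 gene symbols read here are current in the GRCm38.p6 gene table. A gene took its probe set with the highest mean of log2 values over 6 arrays.

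From these values, log2(intensity + 16) was fitted with limma 3.58.1 (lmFit, eBayes) in R 4.3.3 on the group alone, two-sided. Fold changes on that scale understate those of dim genes. The fit was also run on simulated arrays with independent errors and few changed probe sets. Such arrays differ from these and cannot show how far the calls made here hold. Probe sets ending in _x_at or _s_at, which here read Aldoa, Tpi1, Bpgm, Ndrg1, Slc2a3, Adpgk and Ppargc1a, can also bind related transcripts. Pools are described as separate, but not whether they were processed together, so p-values measure the spread between these pools. The number of arrays limits precision. The genes and lists were chosen with earlier results of these data known. Per-array values were given for called genes, for non-overlapping genes among the 5 widest of a role, for isozymes and for Gapdh, and for other lists the 2 largest called rises and falls were named. Values of Pgk1 and Slc16a3, and of Aldoc's other probe set, were added after they were seen. Tables were handled with pandas 2.3.3 in Python 3.11.15.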

Additional observations from a re-analysis of the deposited data

How the results depend on the processing

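The 17 alternatives changed the scaling (quantile, median centring), the probe sets kept (brighter ones, or all of a gene averaged), the model (replicate block, trended robust variance, array weights), the pseudocount (1 or 64) and the threshold (2 stricter ones), or dropped each array in turn. In the fits that left out 1 array, 1933 to 2365 genes were called, 6 to 10 of the set rose and 1 to 3 fell. At an adjusted p under 0.01 there were 1558 called genes, 5 rises and 1 fall of the set, and with a fold of at least 1.5 in addition 1279 called genes, 5 rises and 1 fall. Apart from the 2 stricter thresholds, 6 of the 13 called genes kept the call in every alternative that read them (Aldoa, Eno2, Ldhb, Slc16a1, Ankrd37, Ddit4). Of these, Aldoa and Eno2 did not reach the fold of 1.5. Another 6 of the 13 lost the call without some array, and none of the 13 turned its sign. Eno3 (adjusted p = 0.0539) and Ndrg1 (0.0624) also lost it with the replicate block, Ndrg1 (0.0535) with its probe sets averaged, Egln3 with trended variances (0.0733), and Slc2a1 with a pseudocount of 1 (0.0644). Uncalled genes that turned sign were Hk1 (0.01 with median centring, -0.08 to 0.01 without 1 array), Bpgm (0.01 with quantile normalization, 0.02 with median centring and 0.23 with the mean of its probe sets), Pfkl and Pfkp (0.00 each with that mean), Pdk4 (0.01 with quantile normalization, 0.02 with median centring, -0.14 to 0.13 without 1 array), and, without 1 array, Pkm (-0.01 to 0.10), Hif3a (-0.12 to 0.03) and Kdm3a (-0.03 to 0.08). The cause of these changes was not tested. Same-numbered SF1 and control arrays did not deviate together (correlations -0.0633, -0.101 and -0.184). Deviations from a mean of only 3 arrays cannot decide whether the numbers pair the pools, and the labels do not say. With the replicate block 2071 genes were called, of which 9 of the set rose and 2 fell, and 5 of the other hypoxia genes fell in place of 8, 3 of the other glucose genes rose in place of 6, and 5 genes of the citrate cycle and respiratory chain rose in place of 13.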
